A study of Caenorhabditis elegans with 12 samples.

Results

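The genes described here are the fog, fem and tra genes of Caenorhabditis elegans, 9 genes that decide whether germ cells become sperm or oocytes. They were chosen by name (fog-1, fog-2, fog-3, fem-1, fem-2, fem-3, tra-1, tra-2 and tra-3) and matched to the deposited matrix through their WormBase identifiers in the WBcel235 annotation. All 9 were among the 14326 genes of the matrix, and all 9 passed the filter on low values. Levels are given as CPM, the reads of a gene scaled so that each library's genes sum to 1000000.

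Messenger RNA came from whole worms described as young adults before fertility, grown at 20 °C on OP50 bacteria. The 4 genotypes, with 3 libraries each, were wild type, isp-1 mutants, isp-1;sod-3 (called here the sod-3 double mutant) and isp-1;sod-5 (the sod-5 double mutant). All groups except wild type therefore carry an isp-1 mutation, in a gene for an iron-sulphur subunit of mitochondrial complex III, while sod-3 and sod-5 encode superoxide dismutases. The labels give no alleles and no sex. The design text describes 9 isolates per genotype pooled by 3, while the labels give no pooling. What the spread between libraries measures is therefore not settled, and it may be partly technical.

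A C. elegans hermaphrodite first makes a store of sperm in the larva and then switches its germline to oocytes. In the pathway that controls this, the membrane protein TRA-2 binds and restrains FEM-3. The 3 FEM proteins, joined to a CUL-2 ubiquitin ligase, direct the destruction of the transcription factor TRA-1, and TRA-1 represses male genes, among them fog-1 and fog-3, which commit germ cells to sperm. FOG-2 and GLD-1 lower the translation of tra-2 messenger RNA in the larval germline, and TRA-3 is a calpain protease that cuts TRA-2. Much of this control acts on translation and on proteins, which the level of a transcript does not measure.

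Sequencing depth differed between libraries, with 5438798 to 155071752 reads in genes. The most lightly covered of the 9 genes, fog-3, had 8 to 139 reads per library, and the other 8 had at least 121. The library of sod-3 double mutant replicate 3 was the lowest of the 12 for fog-1, fog-2, fem-3 and tra-2, and sod-5 double mutant replicate 3 was the lowest for fem-1, tra-1 and tra-3 and the highest for fog-1 and fem-3. The worms carried a germline by its transcripts. The summed level of 28 oocyte and eggshell genes was 12407 to 17944 CPM, and that of 25 genes of germline mitosis and meiosis was 2842 to 3471 CPM. Of 11 genes of the male tail and male neurons, 9 were not in the matrix, the receptor genes lov-1 and pkd-2 among them, and the other 2 summed to 0.846 to 3.69 CPM.

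Adjusted for length, the genes covered a wide span of levels. The highest was fem-2, a protein phosphatase gene, at 59.3 CPM per kilobase of exon over the 12 libraries, with a range of 53.1 to 69.2. It stood above fem-1, which encodes an ankyrin repeat protein, at 32.7 CPM per kilobase, in all 12 libraries. Next were fem-3 at 30.4 and fog-2 at 29.3 CPM per kilobase, and the ranges of fem-1, fem-3 and fog-2 overlapped. The 3 tra genes followed, with tra-2 at 16.4, tra-1 at 13.7 and tra-3 at 12.5 CPM per kilobase, neighbours whose ranges also overlapped. The lowest were fog-1 at 9.52 and fog-3 at 1.24 CPM per kilobase, with no overlap between these last 2 genes.

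**Figure D1:**
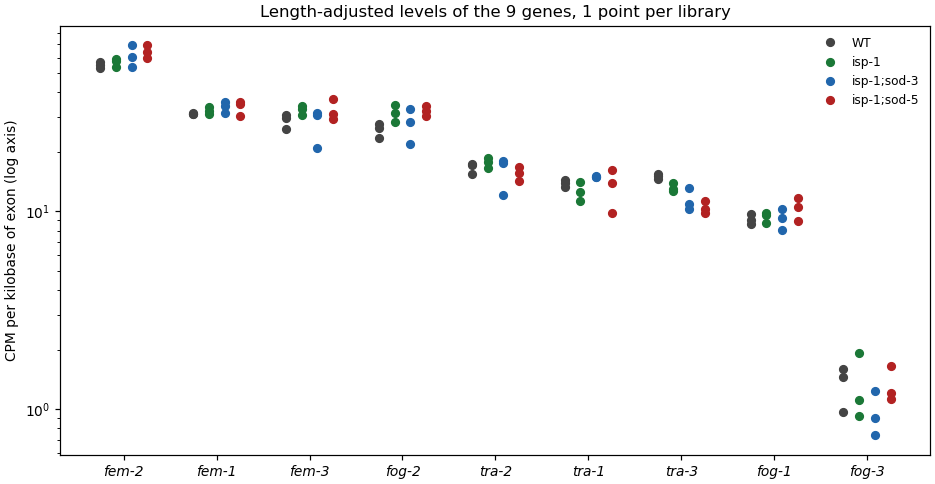
Levels of the 9 genes as CPM per kilobase of exon on a log axis, 1 point per library, coloured by genotype and ordered by the mean over 12 libraries. From fem-2 at 59.3 to fog-3 at 1.24 the genes spread more widely than the 4 genotypes do within any gene.

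Across genotypes tra-3 alone of the 9 genes passed the test. The log2 differences of the 9 genes ran from −0.52 (tra-3) to 0.31 (fog-2), both in the sod-5 double mutant against wild type. With 3 libraries per genotype, a difference that was not called is not shown to be absent. Differences were tested with limma on log2(CPM + 0.5) in a fit of all 12 libraries over 14013 genes, with a Benjamini-Hochberg adjusted p below 0.05 counted as a call. In isp-1 against wild type 0 of the 9 genes were called, where 20.0% of all tested genes were. Their log2 differences ran from −0.19 (tra-3) to 0.27 (fog-2), with a median of 0.05 against a median of 0.01 for all tested genes. With only the libraries of these 2 genotypes in the fit, 1 of the 9 was called, fog-2, where 5702 of the 14013 tested genes were. The values of fog-2 are given below.

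Mutation of a dismutase gene in the isp-1 background came with no call either. In the sod-3 double mutant against isp-1 0 of the 9 genes were called, where 1.08% of all tested genes were, and in the sod-5 double mutant against isp-1 0 of 9 against 1.21%. Between the double mutants 0 of 9 were called, against 0.107%. Against wild type 1 of the 9 genes was called in each double mutant, tra-3 in both, where 17% of all tested genes were called in the sod-3 double mutant and 24.3% in the sod-5 double mutant. Set against that background, 1 of 9 is no excess of calls. Members whose libraries did not overlap between genotypes numbered 2 of 9 in isp-1 against wild type (tra-3 and fog-2), where 51.7% of all tested genes did not overlap. They numbered 2 (tra-1 and tra-3) against 39.8% for the sod-3 double mutant and 3 (fog-2, fem-2 and tra-3) against 42.3% for the sod-5 double mutant, each set against wild type. Against isp-1 they numbered 1 (tra-1, 15.6%) and 2 (fem-2 and tra-3, 16.8%), and 0 between the double mutants (5.22%). At an unadjusted p below 0.05, limma gave 4677 of all genes and edgeR 4875 in isp-1 against wild type. The 3 comparisons with wild type share its libraries, and those with isp-1 share the isp-1 libraries.

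**Figure D2:**
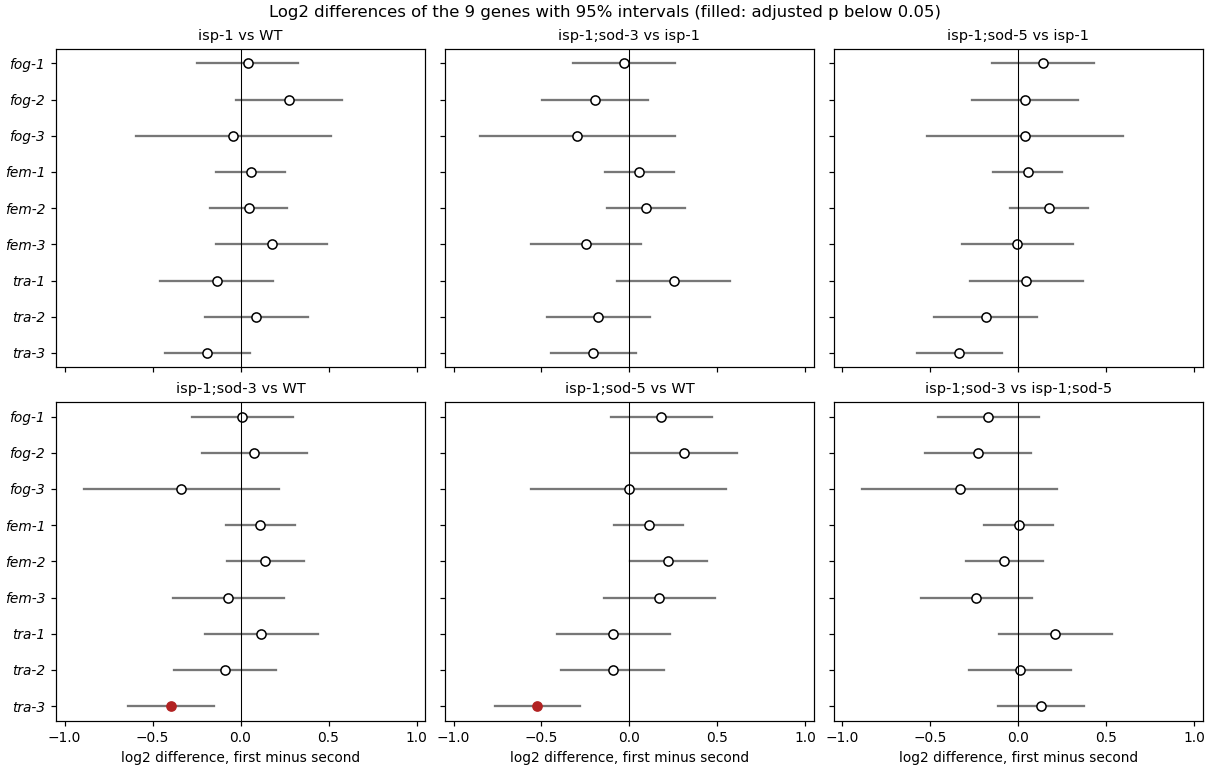
Log2 differences (first genotype minus second, on log2(CPM + 0.5)) of the 9 genes in 6 comparisons, with limma 95% intervals as lines and filled points where the adjusted p was below 0.05. Only tra-3 is filled, at −0.40 in the sod-3 double mutant and −0.52 in the sod-5 double mutant against wild type.

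The protease gene tra-3 (WBGene00006606, chromosome IV, 14436445 to 14444183, minus strand) fell in both double mutants against wild type. Its level was 38.7, 37.6 and 36.7 CPM in wild type replicates 1 to 3, 34.9, 31.7 and 32.4 CPM in isp-1, 32.9, 27.4 and 25.7 CPM in the sod-3 double mutant, and 25.7, 28.1 and 24.4 CPM in the sod-5 double mutant. The 3 wild type libraries were the highest of the 12, and no mutant library reached them. In the sod-5 double mutant the mean was 26.1 ± 1.88 CPM against 37.7 ± 1.0 CPM (SD, n = 3 each), a log2 difference of −0.52 (SE 0.11, 95% interval −0.77 to −0.28, limma adjusted p = 0.00538), or 1.44-fold lower. In the sod-3 double mutant it was 28.7 ± 3.77 CPM, a log2 difference of −0.40 (SE 0.11, 95% interval −0.64 to −0.15, limma adjusted p = 0.0290). In RNA of whole worms fewer cells of a type and less RNA per cell cannot be told apart.

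Between wild type and isp-1 the libraries of tra-3 did not overlap, and the difference was not called (33.0 ± 1.66 CPM, log2 −0.19, limma adjusted p = 0.266). The libraries of the sod-5 double mutant also lay below all those of isp-1, and this difference missed the threshold too (log2 −0.33, 95% interval −0.58 to −0.09, limma adjusted p = 0.236). The double mutants differed from each other by 0.13 on the log2 scale (95% interval −0.11 to 0.37, limma adjusted p = 0.920). The call in the sod-5 double mutant was kept when any 1 of the 12 libraries was left out (adjusted p 0.00368 to 0.0273). The call in the sod-3 double mutant was lost without wild type replicate 1, 2 or 3 (adjusted p = 0.0988, 0.0935 and 0.0638), without sod-3 double mutant replicate 2 or 3 (0.0880 and 0.0622), and with only those 2 genotypes in the fit (0.0609).

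**Figure D3:**
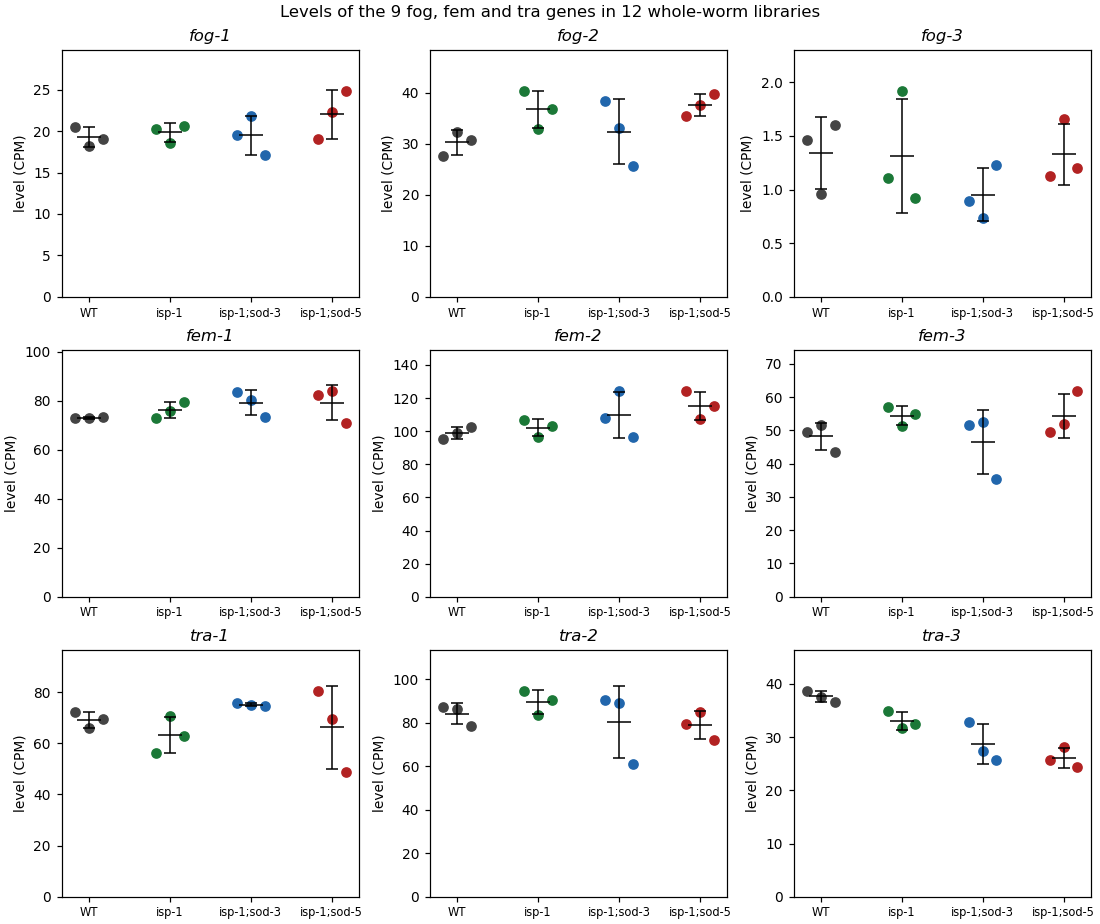
Levels in CPM of each of the 9 genes by genotype, with 1 point per library, a bar for the mean and error bars of 1 SD (n = 3), and each axis starting at 0. The 3 wild type points of tra-3, from 36.7 to 38.7, lie above all 9 mutant points, and the groups of the other genes overlap or lie close.

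The target of that protease, tra-2 (WBGene00006605, chromosome II, 6955384 to 6965673, minus strand), was at 87.4, 86.5 and 78.6 CPM in wild-type worms, 94.6, 83.7 and 90.5 CPM in the isp-1 mutant, 90.6, 89.3 and 61.2 CPM in the sod-3 double mutant, and 79.4, 84.9 and 72.1 CPM in the sod-5 double mutant. The lowest value of the 12 was that of sod-3 double mutant replicate 3, and the groups overlapped. The difference between isp-1 and wild type was 0.09 on the log2 scale (95% interval −0.20 to 0.38, limma adjusted p = 0.697). The exons of tra-2 share 26 bases with ceh-38 on the other strand, and the strand setting of the counting is unknown here.

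Its antagonist fem-3 (WBGene00001413, chromosome IV, 9104966 to 9107607, plus strand) was at 49.4, 51.5 and 43.5 CPM in wild-type worms, 57.1, 51.2 and 54.9 CPM in the isp-1 mutant, 51.6, 52.5 and 35.2 CPM in the sod-3 double mutant, and 49.4, 51.8 and 61.8 CPM in the sod-5 double mutant. The lowest library was again sod-3 double mutant replicate 3 and the highest sod-5 double mutant replicate 3. No comparison was called for fem-3, and the difference of the sod-3 double mutant from wild type went from −0.07 on the log2 scale to 0.11 without sod-3 double mutant replicate 3.

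In the germline it is the balance of FEM-3 and TRA-2 that tips the fate, so the ratio of their transcripts was taken in each library. The ratio of fem-3 to tra-2 CPM was 0.565, 0.595 and 0.554 in wild-type worms, 0.604, 0.612 and 0.607 in the isp-1 mutant, 0.570, 0.588 and 0.576 in the sod-3 double mutant, and 0.622, 0.610 and 0.857 in the sod-5 double mutant. Apart from sod-5 double mutant replicate 3 all libraries lay between 0.554 and 0.622, including the library in which both genes were lowest. The isp-1 ratios lay above those of wild type without overlap, by 0.09 in mean log2 ratio (exact two-sided permutation p = 0.1, the smallest p that 3 against 3 allows), so this test could not pass 0.05. The difference of the sod-5 double mutant from wild type was 0.27 in mean log2 ratio (exact permutation p = 0.1) and 0.11 without sod-5 double mutant replicate 3. The sod-3 double mutant ratios lay within the wild type range and below all those of isp-1 and the sod-5 double mutant. They differed by −0.07 from isp-1 and −0.25 from the sod-5 double mutant (exact permutation p = 0.1 each). The sod-3 double mutant differed from wild type by 0.02 (exact permutation p = 0.7), and the sod-5 double mutant from isp-1 by 0.18 (exact permutation p = 0.2).

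The other FEM genes had the narrowest ranges of the 9 over the 12 libraries, 0.24 for fem-1 and 0.38 for fem-2 on the log2 scale, against a median of 0.92 for all tested genes. The gene fem-1 (WBGene00001411, chromosome IV, 5533140 to 5537962, minus strand), whose product is the adaptor of the ubiquitin ligase, ran from 70.9 to 84.0 CPM over the 12 libraries, with 72.8 to 73.6 CPM in wild type. Its within-genotype SD was 0.09 on the log2 scale, against a median of 0.22 for all tested genes. Its difference between isp-1 and wild type was 0.06 (95% interval −0.14 to 0.25, limma adjusted p = 0.717), an interval of 0.907-fold to 1.19-fold.

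For fem-2 (WBGene00001412, chromosome III, 632019 to 634626, minus strand) the range was 95.3 to 124 CPM. Levels were 98.8 ± 3.56 CPM in wild-type worms, 102 ± 5.17 CPM in the isp-1 mutant, 110 ± 13.9 CPM in the sod-3 double mutant and 115 ± 8.43 CPM in the sod-5 double mutant (SD, n = 3 each). The libraries of the sod-5 double mutant lay above those of wild type and of isp-1 without overlap, but neither difference was called (log2 0.22 and 0.17, limma adjusted p = 0.133 and 0.534).

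The transcription factor gene tra-1 (WBGene00006604, chromosome III, 11170890 to 11195201, minus strand), a member of the GLI family, was at 72.1, 66.0 and 69.6 CPM in wild-type worms, 56.3, 70.6 and 62.7 CPM in the isp-1 mutant, 75.7, 74.9 and 74.6 CPM in the sod-3 double mutant, and 80.5, 69.7 and 48.7 CPM in the sod-5 double mutant. The 3 sod-3 double mutant libraries lay above all those of wild type and isp-1, and the sod-5 double mutant held both the highest and the lowest library of the 12. None of the differences was called, and that of the sod-5 double mutant from wild type went from −0.09 on the log2 scale to 0.11 without sod-5 double mutant replicate 3. The difference between isp-1 and wild type was −0.14 (95% interval −0.46 to 0.19, limma adjusted p = 0.574).

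The sperm-fate gene fog-1 (WBGene00001481, chromosome I, 3211046 to 3217267, plus strand) encodes an RNA-binding protein of the CPEB family. It was at 20.5, 18.2 and 19.1 CPM in wild-type worms, 20.3, 18.6 and 20.7 CPM in the isp-1 mutant, 19.5, 21.8 and 17.1 CPM in the sod-3 double mutant, and 19, 22.2 and 24.8 CPM in the sod-5 double mutant. All 4 groups overlapped. The difference between isp-1 and wild type was 0.04 on the log2 scale (95% interval −0.25 to 0.33, limma adjusted p = 0.873), an interval of 0.842-fold to 1.26-fold.

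Its partner in sperm fate, fog-3 (WBGene00001483, chromosome I, 10016765 to 10018121, plus strand), encodes a protein of the Tob family and was close to the filter. It was at 1.46, 0.962 and 1.60 CPM in wild-type worms, 1.11, 1.92 and 0.919 CPM in the isp-1 mutant, 0.896, 0.737 and 1.23 CPM in the sod-3 double mutant, and 1.13, 1.65 and 1.2 CPM in the sod-5 double mutant. The groups overlapped, and the reads themselves limit what can be seen. The 8 reads of isp-1 replicate 3 carry an exact 95% Poisson interval of 0.397 to 1.81 CPM, for counting error only, a span that holds 11 of the 12 libraries. The difference between isp-1 and wild type was −0.04 on the log2 scale (95% interval −0.60 to 0.51, limma adjusted p = 0.935), an interval of 0.662-fold to 1.43-fold. The ratio of fog-3 to fog-1 CPM ran from 0.0528 to 0.0838 in wild type, 0.0444 to 0.103 in isp-1, 0.0337 to 0.0717 in the sod-3 double mutant and 0.0483 to 0.0744 in the sod-5 double mutant. All groups overlapped, and the mean log2 ratio of isp-1 was −0.11 from that of wild type (exact two-sided permutation p = 0.9).

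Of 46 sperm genes in the matrix, 30 fell and 0 rose in isp-1 against wild type. The list held 3 further genes that were not in the matrix and 2 names, fer-14 and ssp-11, that matched no symbol in the annotation and were not looked up. Many of the 46 are of the major sperm protein family, whose members may have shared or lost reads in counting, which was not tested. Counts over the 46 may therefore not be counts of separate measurements. The summed level of 46 sperm genes (major sperm proteins, spe genes and others, a list chosen with earlier results of these data known) was 1095, 1140 and 1280 CPM in wild-type worms, 472, 584 and 440 CPM in the isp-1 mutant, 674, 323 and 1058 CPM in the sod-3 double mutant, and 475, 643 and 812 CPM in the sod-5 double mutant. All 9 mutant libraries were below wild type, and sod-3 double mutant replicate 3 came nearest to it. In isp-1 against wild type 16 of the 46 were not called and the median log2 difference was −1.15, where 20.0% of all tested genes were called. In the sod-3 double mutant against wild type 9 of the 46 fell, 0 rose and 37 were not called, with a median of −0.92, a share of calls near the 17% of all tested genes. Of the same 46, 14 fell in the sod-5 double mutant against wild type, 0 rose and 32 were not called, with a median of −0.90, where 24.3% of all tested genes were called. These counts turned on single libraries while the medians kept their sign. With 1 library left out, an alternative added after seeing the data, 4 to 40 fell in isp-1, with medians of −1.30 to −1.06. In isp-1 it was 4 to 8 without any 1 wild type library or without isp-1 replicate 1 or 3, and 19 without sod-3 double mutant replicate 1. In the sod-3 double mutant 38 fell without its replicate 3, and 1 or 2 fell without any 1 wild type library or its replicate 1 or 2. Against wild type 38 and 31 fell in the sod-5 double mutant without sod-3 double mutant replicate 2 or 3, and 4 to 10 without any 1 library of wild type, of isp-1 or its own replicate 1 or 2, or without sod-3 double mutant replicate 1. Calls among all 14013 tested genes moved as well when 1 library was left out. They numbered 1088 to 3581 in isp-1, 1211 to 3525 in the sod-3 double mutant and 1865 to 4162 in the sod-5 double mutant, each against wild type.

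Examples are the sperm phosphatase gene gsp-4, which fell from 32.6 ± 0.872 CPM in wild-type worms to 11 ± 1.93 CPM in the isp-1 mutant (log2 −1.54, SE 0.32, limma adjusted p = 0.00682), and msp-56, a major sperm protein gene, which fell from 23.9 to 7.01 CPM (log2 −1.71, limma adjusted p = 0.00819). The sperm membrane protein genes spe-49 and spe-42 fell by 1.54 and 1.13 on the log2 scale (limma adjusted p = 0.00711 and 0.00843). Both were close to the filter of 1 CPM, at 3.19 and 2.40 CPM in wild type and 0.812 and 0.822 CPM in isp-1. Under other settings both stayed called, with log2 differences of −1.99 to −1.23 and −1.575 to −0.897. Beside the sperm sums of 674, 323 and 1058 CPM in the sod-3 double mutant fog-1 was at 19.5, 21.8 and 17.1 CPM, the opposite order, and beside 475, 643 and 812 CPM in the sod-5 double mutant it was at 19, 22.2 and 24.8 CPM, the same order. The lists of 28 oocyte genes and 25 genes of germline mitosis and meiosis had 1 member higher and 0 lower each in isp-1, with medians of 0.08 and 0.0015. They were the caveolin gene cav-1 (log2 1.58, limma adjusted p = 0.00540) and the synaptonemal complex gene syp-4 (log2 0.30, limma adjusted p = 0.0438). The call of syp-4 was kept in only 4 of the 12 fits with 1 library left out. It was lost without any 1 library of wild type or isp-1 (adjusted p up to 0.152) and under 5 of 10 other settings, TMM factors, median centring, edgeR, DESeq2 and the replicate block (0.0644 to 0.240). Against wild type the oocyte list had 1 higher and 1 lower in the sod-3 double mutant and 1 higher and 0 lower in the sod-5 double mutant, and the list of mitosis and meiosis had 2 and 4 higher and 0 lower. Both lists had a lower share of calls than all tested genes in each comparison with wild type. Of all tested genes 20.0% were called in isp-1, 17% in the sod-3 double mutant and 24.3% in the sod-5 double mutant.

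**Figure D4:**
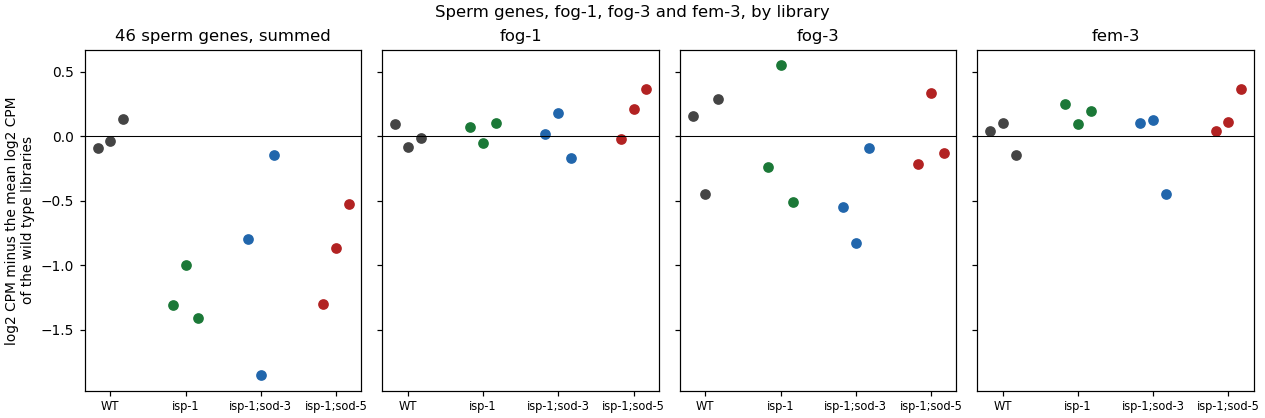
Log2 CPM of each library minus the mean log2 CPM of the wild type libraries, for 46 sperm genes summed and for fog-1, fog-3 and fem-3, 1 point per library on a shared axis. The sperm sum of the 3 isp-1 libraries (440 to 584 CPM) lies far below wild type (1095 to 1280 CPM), while fog-1 stays near the line at 17.1 to 24.8 CPM.

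The remaining member, fog-2 (WBGene00001482, chromosome V, 20199254 to 20200648, plus strand), encodes an F-box protein found in this species as a recent copy of its neighbour ftr-1. It was at 27.6, 32.4 and 30.8 CPM in wild-type worms, 40.3, 32.9 and 36.9 CPM in the isp-1 mutant, 38.3, 33.0 and 25.7 CPM in the sod-3 double mutant, and 35.5, 37.5 and 39.7 CPM in the sod-5 double mutant. The isp-1 and sod-5 double mutant libraries lay above all wild type libraries, those of isp-1 by a narrow margin, and those of the sod-3 double mutant spread over the whole range. The difference between isp-1 and wild type was 0.27 on the log2 scale (SE 0.14, 95% interval −0.03 to 0.57, limma adjusted p = 0.191). With only those 2 genotypes in the fit, which called 5702 of all tested genes, its limma adjusted p was 0.0408. In the sod-5 double mutant against wild type the difference was 0.31 (95% interval 0.01 to 0.61, limma adjusted p = 0.125).

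The copy ftr-1 (WBGene00013756, chromosome V, 20196971 to 20198241, plus strand) lies 1012 bases from fog-2 and does not overlap it. Because the genes are copies, reads of the pair may have been shared or lost in counting, which was not tested. The level of ftr-1 was 11.9 ± 1.33 CPM in wild-type worms, 16.4 ± 1.83 CPM in the isp-1 mutant, 14.2 ± 2.21 CPM in the sod-3 double mutant and 16.5 ± 1.02 CPM in the sod-5 double mutant (SD, n = 3 each). It rose in the sod-5 double mutant against wild type (1.37-fold, log2 0.46, SE 0.15, limma adjusted p = 0.0404) and just missed the threshold in isp-1 (log2 0.45, limma adjusted p = 0.0505, called under 4 of 10 other settings), with the call in the sod-5 double mutant lost under 6 of 10 other settings. It was also lost without wild type replicate 1 or 2, isp-1 replicate 1 or 3, or sod-5 double mutant replicate 2 or 3 (adjusted p 0.0540 to 0.141). Over the 12 libraries, which come from 4 genotypes and differ in depth, fog-2 and ftr-1 correlated at r = 0.83, a description and not a test. With the CPM of the pair summed, an alternative added after seeing the data, the difference was 0.33 in isp-1 (limma adjusted p = 0.0889) and 0.35 in the sod-5 double mutant (limma adjusted p = 0.0595).

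Other genes of the pathway were described from lists chosen with earlier results known. Of 10 genes of the X-chromosome signal and the steps down to tra-2, 9 were in the matrix. The gene not in it is her-1, whose secreted product turns off TRA-2 in males. In isp-1 against wild type 2 of the 9 rose, 0 fell and 7 were not called, with a median of 0.21. That share of calls is near the 20.0% of all tested genes. The nuclear receptor gene sex-1, an X-linked signal element, rose from 19.7 ± 1.08 to 29.7 ± 3.68 CPM (log2 0.57, SE 0.16, limma adjusted p = 0.0256), and the T-box gene sea-1, an autosomal signal element, rose to 16.1 ± 1.65 CPM, 1.6 times its wild type mean (log2 0.65, SE 0.17, limma adjusted p = 0.0184). In the sod-5 double mutant against wild type sea-1 alone rose of the 9 (log2 0.70, limma adjusted p = 0.0104), and in the sod-3 double mutant none was called. Of all tested genes 24.3% and 17% were called in these comparisons. In isp-1 both calls were lost without wild type replicate 1 or 2 or isp-1 replicate 1 or 3, and that of sex-1 without wild type replicate 3 (adjusted p 0.0589 to 0.115). The switch gene xol-1, which sets male fate in the embryo, was at 0.536 to 1.70 CPM in all libraries.

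Of 13 partners and regulators of the TRA and FEM proteins, all in the matrix, 3 rose and 0 fell in isp-1, with a median of −0.12, again a share near the 20.0% of all tested genes. They were sup-26, whose RNA-binding product represses tra-2 translation, from 55.2 ± 6.11 to 83.8 ± 3.16 CPM (log2 0.60, SE 0.13, limma adjusted p = 0.00966), tra-4, a zinc-finger gene that promotes female fate (18.0 to 24.8 CPM, log2 0.45, limma adjusted p = 0.0191), and hda-3, a histone deacetylase gene (60.9 to 78.2 CPM, log2 0.36, limma adjusted p = 0.0286). The rise of sup-26 was also called in the sod-3 double mutant (log2 0.66, limma adjusted p = 0.00485) and in the sod-5 double mutant (log2 0.69, limma adjusted p = 0.00317), and in each of the 3 comparisons it was kept when any 1 library was left out. In the sod-5 double mutant the histone chaperone gene nasp-1, a partner of TRA-4, rose (log2 0.39, limma adjusted p = 0.0132) and laf-1, an RNA helicase gene, fell (log2 −0.44, limma adjusted p = 0.0125), with hda-3 also higher (log2 0.32, limma adjusted p = 0.0388). Of the 13 genes 1 rose and 0 fell in the sod-3 double mutant, and 3 rose and 1 fell in the sod-5 double mutant. Of all tested genes 17% and 24.3% were called in these comparisons with wild type. In isp-1 the calls of tra-4 and hda-3 were lost without wild type replicate 1 or 3 or isp-1 replicate 1 or 3, and that of hda-3 without wild type replicate 2 (adjusted p 0.0665 to 0.109). With median centring tra-4 (0.0625) and hda-3 (0.144) were not called, nor was hda-3 with TMM factors (0.0630), edgeR (0.0599) or DESeq2 (0.0536). In the sod-5 double mutant nasp-1 and laf-1 were lost without wild type replicate 1 and laf-1 without replicate 2 (adjusted p 0.0514 to 0.0608), and hda-3 without any 1 wild type library, isp-1 replicate 1 or 3, or sod-5 double mutant replicate 1 or 2 (0.0550 to 0.123). Neither nasp-1 (0.0531 to 0.151) nor hda-3 (0.173 to 0.276) was called there with TMM factors, median centring, edgeR or DESeq2, and hda-3 was lost under the replicate block (0.0608). Neither cul-2 nor the other ligase genes were called in these 3 comparisons.

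Of 23 listed germline RNA regulators 22 were in the matrix, and the name mog-6 matched no symbol in the annotation and was not looked up. In isp-1 against wild type 0 of the 22 rose, 2 fell and 20 were not called, with a median of −0.11, a share of calls below the 20.0% of all tested genes. The gene fbf-2, whose PUF-family product represses fem-3 and fog-1 messages, fell from 33.2 ± 0.797 to 25.1 ± 3.0 CPM (log2 −0.40, SE 0.12, limma adjusted p = 0.0286), and larp-1, the gene of an RNA-binding protein that promotes oocyte fate, fell from 852 ± 102 to 649 ± 8.81 CPM (log2 −0.39, SE 0.10, limma adjusted p = 0.0208). Both calls were lost without wild type replicate 1 or 2 or isp-1 replicate 1 or 3, that of fbf-2 also without wild type replicate 3 and that of larp-1 without isp-1 replicate 2 (adjusted p 0.0539 to 0.132). The call of larp-1 was also lost with median centring (0.0678) and that of fbf-2 under the replicate block (0.0538). The near copy fbf-1 was at 41.8 ± 1.52 and 39 ± 6.04 CPM, and counts of this pair may share reads. The gene gld-1, the partner of fog-2, was at 1089 ± 93.4 CPM in wild-type worms and 999 ± 53.5 CPM in the isp-1 mutant and was not called.

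In the double mutants larp-1 fell against wild type as well (log2 −0.46 in the sod-3 double mutant and −0.55 in the sod-5 double mutant, limma adjusted p = 0.00838 and 0.00256), and rnp-8, whose product joins the poly(A) polymerase GLD-2, rose (log2 0.36 and 0.45, limma adjusted p = 0.0210 and 0.00544). In the sod-3 double mutant cpb-1, a CPEB-family gene needed for spermatogenesis, fell (log2 −0.54, limma adjusted p = 0.0159). Counts over the 22 genes were 1 higher and 2 lower in the sod-3 double mutant, and 1 higher and 3 lower in the sod-5 double mutant, where fbf-2 and atx-2, an ataxin-2 gene, fell with larp-1 (log2 −0.36 and −0.39, limma adjusted p = 0.0359 and 0.0241). Of all tested genes 17% and 24.3% were called in these comparisons. Left-out libraries ended the call of cpb-1 (wild type replicate 1 or sod-3 double mutant replicate 1) and that of rnp-8 in the sod-3 double mutant (wild type replicate 2 or 3, or its own replicate 1 or 2). In the sod-5 double mutant they ended that of atx-2 (wild type replicate 1 or 2, or its own replicate 2) and that of fbf-2 (any 1 library of wild type or its own), and larp-1 kept its calls in both double mutants. With median centring rnp-8 was not called in either (0.135 and 0.0727) and atx-2 was not (0.0515). With only the 2 genotypes compared atx-2 (0.0743) and fbf-2 (0.0505) were not called, nor was fbf-2 under the replicate block (0.0652). Against isp-1, neither double mutant had a call in any of these 3 lists, where 1.08% (sod-3) and 1.21% (sod-5) of all tested genes were called.

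**Figure D5:**
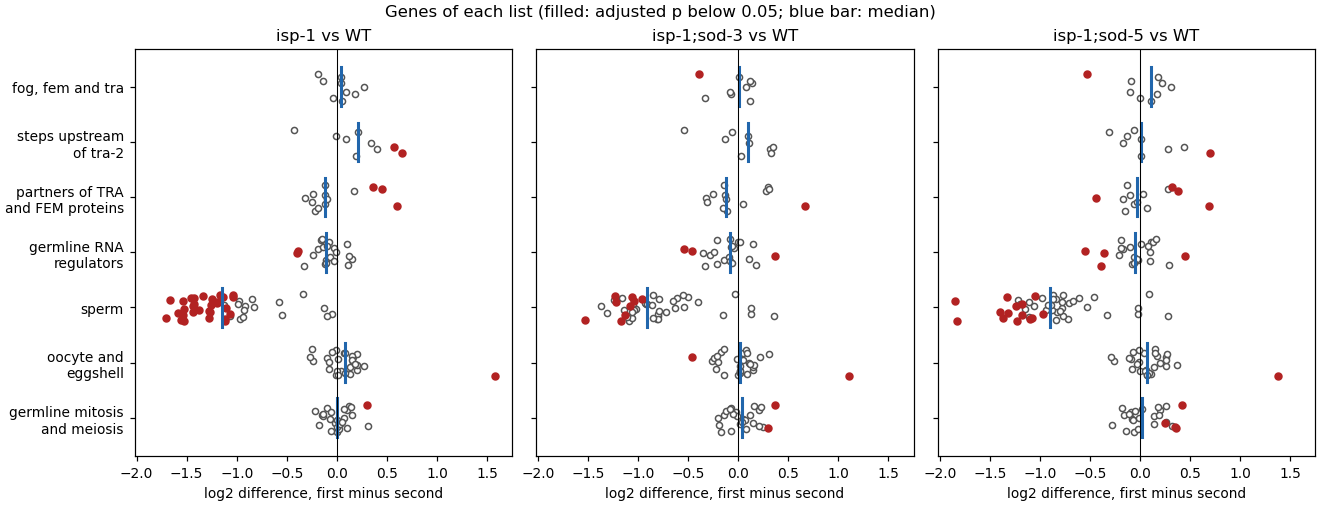
Log2 differences from wild type (on log2(CPM + 0.5)) of the genes of 7 lists in the 3 mutants, 1 point per gene, filled where the adjusted p was below 0.05, with a bar at each median. The sperm list is displaced to the left, with medians of −1.15, −0.92 and −0.90, while the fog, fem and tra genes lie around 0.

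Of 5 male-programme genes that act downstream of TRA-1, 3 were not in the matrix. The doublesex-related gene mab-3, which TRA-1 represses in the soma, was at 2.33, 1.5 and 1.46 CPM in wild-type worms, 0.554, 1.39 and 0.804 CPM in the isp-1 mutant, 1.03, 0.737 and 1.48 CPM in the sod-3 double mutant, and 0.188, 0.919 and 0.899 CPM in the sod-5 double mutant. It fell in the sod-5 double mutant against wild type (log2 −1.0, SE 0.33, limma adjusted p = 0.0403), with the call lost without any 1 wild type library, isp-1 replicate 3, sod-3 double mutant replicate 1 or sod-5 double mutant replicate 1 (adjusted p 0.0540 to 0.156), with log2(CPM + 0.1) (0.0513) and under the replicate block (0.0610). The other gene of this list in the matrix, ceh-30, went the other way against wild type and was not called. Its log2 difference was 0.14 in isp-1, 0.21 in the sod-3 double mutant and 0.48 in the sod-5 double mutant. In the last comparison 24.3% of all tested genes were called. In the shallowest library 1 read is worth 0.184 CPM.

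Genes with the most similar profile to each member were sought among 6017 genes (6018 for fog-3) with a locus name and a mean of at least 5 CPM, by Pearson r of log2(CPM + 0.5) over the 12 libraries, as a description. For fog-2 they were paxt-1 (0.96), lrr-1 (0.96), fbxa-215 (0.95), zipt-3 (0.95) and set-14 (0.94), and for fem-1 they were vps-53 (0.93), ddb-1 (0.89), npp-24 (0.89), wrn-1 (0.88) and hda-6 (0.88). For tra-1 they were pad-1 (0.94), ama-1 (0.93), eel-1 (0.88), pod-2 (0.87) and set-9 (0.87), and for tra-2 they were amx-1 (0.95), mom-5 (0.95), haf-2 (0.93), lin-35 (0.93) and brf-1 (0.92). Nearest to tra-3 were ints-6 (r = 0.94), ugt-25 (0.92), vit-3 (0.92), hpo-40 (0.92) and pro-2 (0.92). For fog-1 they were set-21 (0.97), gras-1 (0.92), ctf-8 (0.91), prx-14 (0.89) and xpa-1 (0.88). For fem-3 they were gly-20 (0.97), inx-14 (0.95), orc-2 (0.94), set-32 (0.93) and set-1 (0.93), and for fem-2 they were orc-3 (0.95), rfc-3 (0.94), chaf-2 (0.94), gln-5 (0.93) and melo-1 (0.93). The lowest maximum was that of fog-3, at 0.69 with pmp-5. Among the members themselves the highest correlation was that of fog-2 with fem-3 (r = 0.82), and that of fem-3 with tra-1 was −0.61. Libraries of a group share a genotype and may share preparation, so these values describe the libraries and are not tests.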

How the data were processed

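The deposited matrix holds CPM values that the authors made, and each column sums to 1000000. The submitters' processing notes name build WBcel235 and the tools featureCounts (1.4.6), Subread (1.5.0), edgeR (3.14.0), R (3.3.0), FastQC (0.11.3) and bcl2fastq (2.17.1.14), with no parameters. Libraries came from a stranded kit per the labels. Every matrix gene exceeds 1 CPM in at least 2 libraries. All values (100%) were whole multiples of 1 read within 0.001 reads, which gave back reads and totals, although the deepest library, isp-1;sod-3 replicate 1, has too few low values for a check on these alone. Gene names, loci and the length of merged exons were taken from an Ensembl WBcel235 annotation, which held 14250 of the 14326 identifiers.

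In R 4.3.3, limma 3.58.1 (trend and robust options) was fitted to log2(CPM + 0.5) of 14013 genes above 1 CPM in at least 3 libraries, all 12 libraries in 1 fit, p two-sided and adjusted within each of 6 comparisons. The step was tested on simulated data. Alternatives changed the pseudocount, filter, scaling, test (edgeR 4.0.16, DESeq2 1.42.0) and libraries. Replicate numbers were not used to pair libraries in the main fit. Named genes are the 9 members, ftr-1, up to 4 called genes of each list per comparison by adjusted p, and the 5 genes most like each member. The genes ceh-30, ceh-38, mog-6, fer-14, ssp-11, cul-2, gld-1, fbf-1, xol-1, her-1, lov-1 and pkd-2 were named after their values were seen. Members and lists were chosen with earlier results of these data known. No 2 libraries of a group agreed within sampling noise. Sequences were not used here.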

Additional observations from a re-analysis of the deposited data

How the results depend on the processing

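The call of tra-3 in the sod-5 double mutant against wild type held under all 10 other settings (adjusted p 0.00012 to 0.0131). That in the sod-3 double mutant held under 9 of 10. With only the 2 genotypes compared in the fit, 0 members were called in the sod-3 double mutant against wild type. In isp-1 against wild type 1 was, fog-2, where 5702 of the 14013 tested genes were called. Leaving out 1 library gave 0 to 1 called members in the sod-3 double mutant against wild type. Of 1188 refits of the 54 member differences, 50 changed the sign of a difference that was not called, 6 lost a call and 1 gained one.

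The number of all genes called was 2798 in isp-1 against wild type, 2379 for the sod-3 and 3402 for the sod-5 double mutant against wild type, 1.08% and 1.21% of the tested genes for the double mutants against isp-1, and 15 between them. With a mean of at least 5 CPM required, fewer genes were tested and 1451, 1538 and 2048 were called against wild type. DESeq2 on recovered reads called 323 and 334 against isp-1 and 28 between the double mutants. With only the 2 genotypes fitted, 5702 were called in isp-1 against wild type and 2 between the double mutants. Leaving out 1 library gave 1088 to 3581, 1211 to 3525 and 1865 to 4162 against wild type, 89 to 228 and 89 to 261 against isp-1, and 10 to 18 between the double mutants. The cause of these changes was not tested.

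The share of calls that were higher moved from 61.3% to 51.3% with TMM factors and 44.7% with median centring in the sod-3 double mutant, from 58.0% to 44.5% and 43.2% in the sod-5 double mutant, and from 48.1% to 45.3% and 39.9% in isp-1, each against wild type. Against isp-1 the share moved from 53.3% to 42.4% with TMM factors for the sod-5 double mutant.

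Same-numbered replicates deviated together in 5 of 18 pairs (correlation over 0.1, range −0.545 to 0.329). Pairs with different numbers were not compared, so whether a number marks a shared batch was not settled. The main fit did not pair libraries. With the replicate number as a block, 1 member, tra-3, was called in each double mutant against wild type (adjusted p = 0.0439 and 0.0107) and 0 in the other comparisons. Calls among all genes under the block were 2182, 1824 and 2751 against wild type, 127 and 123 against isp-1, and 13 between the double mutants.

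The log2 ratio differences reversed when 1 library was left out in 3 comparisons. That of fem-3 to tra-2 ran from −0.0055 to 0.047 in the sod-3 double mutant against wild type. That of fog-3 to fog-1 ran from −0.46 to 0.14 in isp-1 against wild type and from −0.33 to 0.28 in the sod-5 double mutant against isp-1. Depth limits fog-3 most, with 8 to 139 reads per library.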
